A study of Mus musculus with 9 samples.

Results

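This is an account of 8 genes, the intermediate filament genes Gfap, Nes, Vim, Synm and Ina and the nuclear lamin genes Lmna, Lmnb1 and Lmnb2, across 3 culture conditions of adult mouse neural stem cells (NSCs). They were chosen by name, as the rows of the expression table whose Ensembl identifier maps to these symbols, and are 8 of the 55704 genes listed there. The rule uses no measured value, but the genes were proposed with earlier results of these data known. NSCs are the cells of the adult brain that can divide and give rise to new neurons and glia. They came from the subventricular zone of C57BL/6 mice aged 8 to 9 weeks, with 2 female and 2 male mice pooled for an isolation, and had gone through several passages in medium with basic fibroblast growth factor (bFGF) and epidermal growth factor (EGF). Cells called bFGF/EGF were collected on day 0, after 16 to 18 h of adherent culture in that medium. In bFGF/BMP4, EGF was then replaced by bone morphogenetic protein 4 (BMP4) for 6 days. In BMP4, both growth factors were replaced by BMP4 alone for 6 days. Each factor was used at 20 ng/mL, and each condition had 3 RNA-seq libraries, described by the submitters as biological replicates. Both media with BMP4 were sampled on day 6 and bFGF/EGF on day 0, so the effect of the medium and that of time in culture cannot be told apart in any comparison with bFGF/EGF.

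Intermediate filaments are rope-like polymers that give a cell mechanical strength. In the cytoplasm of neural stem cells and astrocytes they are built from vimentin, nestin, synemin and GFAP, and the mix changes as a stem cell matures into an astrocyte, for which GFAP is the classic marker. Lamins are the filaments of the nucleus: A-type and B-type lamins line the inner nuclear membrane, hold chromatin and nuclear envelope proteins in place, and are present in different proportions in dividing and differentiated cells.

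The level of a gene is given in FPKM, a number of fragments scaled by gene length and by the fragments sequenced. The 9 libraries held 15892854 to 17419822 fragments on genes, and all 8 genes passed the filter of a mean of at least 0.1 FPKM that left 20207 genes to be tested. Log2 fold changes were fitted by limma on log2(FPKM + 0.1), which understates the change of a gene near 0, and p-values were adjusted over all tested genes by the Benjamini-Hochberg method. A gene was called changed at an adjusted p of at most 0.05 together with a fold change of at least 2. Profiles of all genes correlated at 0.95 to 0.964 (Pearson's r across genes) between libraries of the same condition and at up to 0.915 between conditions. In BMP4 replicate 2, several very long transcripts were at a lower level than in the other BMP4 libraries. The nuclear envelope gene Syne1, for example, stood at 0.787 FPKM there and at 2.02 and 2.79 FPKM in the other two.

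The 8 genes followed 4 courses over the conditions. Gfap rose at each step from bFGF/EGF to bFGF/BMP4 to BMP4. Vim, Nes, Ina and Lmna were lowest in bFGF/BMP4 and higher in BMP4. Synm was higher in BMP4 than in both other conditions. Lmnb1 and Lmnb2 were highest in bFGF/EGF and lowest in BMP4. In bFGF/BMP4 against bFGF/EGF, 1 of the 8 genes rose (16.5% of all genes tested rose) and 6 fell (14.1% of all genes fell). Against the same libraries, in BMP4, 2 rose (21.3% of all genes) and 3 fell (15.4% of all genes). In BMP4 against bFGF/BMP4, 6 rose (8.41% of all genes) and 1 fell (5.14% of all genes). The first 2 comparisons share the bFGF/EGF libraries, so their values are given side by side and not as separate evidence. The median log2 fold change of the 8 genes was -1.75 in bFGF/BMP4 against bFGF/EGF, -0.36 in BMP4 against bFGF/EGF and 1.80 in BMP4 against bFGF/BMP4, where the medians over all genes tested were 0.063, 0.10 and 0.00. RNA was taken from whole cultures, in which fewer cells expressing a gene and less RNA of it per cell cannot be told apart.

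**Figure D1:**
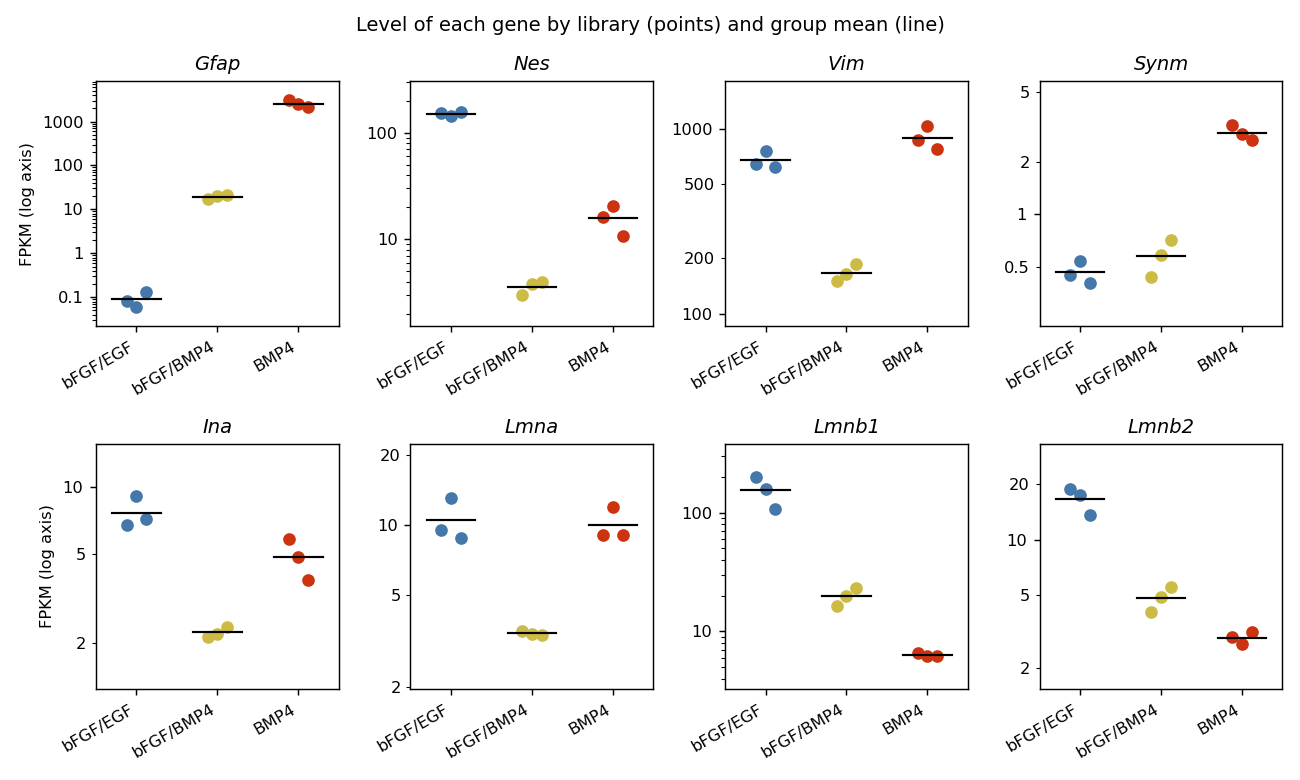
Level of each of the 8 genes in FPKM on a log axis, with 1 point for each library, coloured by condition, and a line at the mean of the 3 libraries. Gfap climbs over both steps, Vim, Nes, Ina and Lmna dip in bFGF/BMP4, Synm is high in BMP4 and the 2 B-type lamin genes descend.

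Gfap encodes glial fibrillary acidic protein, the filament protein of astrocytes and of the astrocyte-like stem cells of the subventricular zone. It lies on the minus strand at chr11:102778159-102791738 (GRCm39). In bFGF/EGF it was barely detected, at 0.0837, 0.0600 and 0.134 FPKM in replicates 1, 2 and 3, which correspond to 6, 4 and 10 fragments. In bFGF/BMP4 it stood at 16.8, 19.9 and 21.5 FPKM. In BMP4 it reached 3038, 2478 and 2181 FPKM. The 3 conditions did not overlap at any step. The last of them corresponds to 208096, 169296 and 151743 fragments, or 1.24%, 0.972% and 0.891% of all fragments on genes in those libraries. Ranked by mean level over all 55704 genes, Gfap moved from place 18926 in bFGF/EGF to 2740 in bFGF/BMP4 and to 6 in BMP4. Its log2 fold change against bFGF/EGF was 6.67 ± 0.17 (SE; limma, adjusted p = 1.07e-08) in bFGF/BMP4 and 13.71 ± 0.17 (adjusted p = 5.33e-11) in BMP4, the highest of the 20207 genes tested in that comparison. Between BMP4 and bFGF/BMP4 it was 7.03 ± 0.17 (adjusted p = 3.53e-08), a 132-fold ratio of mean FPKM, and 4 genes had a higher fold change. With 4 to 10 fragments a library in bFGF/EGF, the size of the changes against that condition is known less well than the model's error says, since the added 0.1 FPKM exceeded the mean level of 0.0926 FPKM there.

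Vim encodes vimentin, the most widely used filament protein of stem cells and immature glia. The gene lies at chr2:13578738-13587639 (GRCm39, plus strand). Its level was 647, 763 and 620 FPKM in bFGF/EGF, 150, 163 and 187 FPKM in bFGF/BMP4, and 872, 1029 and 774 FPKM in BMP4. The bFGF/BMP4 libraries lay below all others, while every BMP4 library lay above every bFGF/EGF library by a small margin. Vim fell 4.06-fold by the means from bFGF/EGF to bFGF/BMP4, with a log2 fold change of -2.02 ± 0.17 (SE; limma, adjusted p = 1.04e-05). From bFGF/BMP4 to BMP4 it rose 5.35-fold, with a log2 fold change of 2.42 ± 0.17 (adjusted p = 1.30e-05). BMP4 and bFGF/EGF were 0.39 apart on the log2 scale (95% confidence interval 0.01 to 0.78, adjusted p = 0.0802), a difference that was not called and that became -0.028 after quantile normalization. Even at its lowest, Vim ranked 159 of all genes by mean level, against 25 in bFGF/EGF and 28 in BMP4.

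Nes encodes nestin, a large filament protein that needs vimentin as a partner and is the standard marker of neural stem and progenitor cells. It lies on the plus strand at chr3:87878385-87887758 (GRCm39). The libraries of bFGF/EGF held 152, 145 and 157 FPKM. In bFGF/BMP4 only 2.96, 3.76 and 3.94 FPKM were left. BMP4 libraries held 16.0, 20.7 and 10.7 FPKM, between the other conditions and without overlap with either. Nes had the lowest log2 fold change of the 8 genes in bFGF/BMP4 against bFGF/EGF, -5.38 ± 0.21 (SE; limma, adjusted p = 8.60e-08), with 20 of the 20207 genes below it. Against bFGF/EGF the BMP4 libraries were at -3.30 ± 0.21 (adjusted p = 1.17e-06). From bFGF/BMP4 to BMP4, Nes rose by 2.08 ± 0.21 (adjusted p = 0.000103), 4.45-fold by the means.

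Gfap, Vim and Nes together made up most of the cytoplasmic filament transcripts, and the 250 bases before their transcription starts are shown for that reason. The sequences are from RefSeq (build GRCm38.p6, so their coordinates are not those of the gene positions given above): chr11:102897201-102897450 on the minus strand for Gfap, chr2:13574061-13574310 on the plus strand for Vim, and chr3:87970843-87971092 on the plus strand for Nes. Capitals mark matches, on either strand, to the TATA box (letters TATAAA), the CCAAT box (letters CCAAT), the GC box (letters GGGCGG), the STAT motif (letters TTCNNNGAA), the AP-1 motif (letters TGAGTCA) or the E2F motif (letters TTTGGCGC).
Gfap: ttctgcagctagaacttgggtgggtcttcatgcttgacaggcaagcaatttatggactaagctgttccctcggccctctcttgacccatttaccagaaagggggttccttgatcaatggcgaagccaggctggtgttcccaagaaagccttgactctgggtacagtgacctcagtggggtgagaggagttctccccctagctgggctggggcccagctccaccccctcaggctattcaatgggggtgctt
Vim: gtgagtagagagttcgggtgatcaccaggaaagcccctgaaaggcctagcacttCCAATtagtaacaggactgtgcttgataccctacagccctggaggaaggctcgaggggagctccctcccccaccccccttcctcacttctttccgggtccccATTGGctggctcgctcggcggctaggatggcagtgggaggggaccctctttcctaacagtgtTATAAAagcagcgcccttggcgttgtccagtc
Nes: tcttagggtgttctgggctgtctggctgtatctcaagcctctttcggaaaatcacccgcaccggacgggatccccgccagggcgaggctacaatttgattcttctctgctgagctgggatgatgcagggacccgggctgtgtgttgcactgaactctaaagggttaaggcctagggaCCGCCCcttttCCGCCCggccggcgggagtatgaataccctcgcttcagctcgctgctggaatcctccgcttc
The Vim window held a TATA box at bases 32 to 27 before the start and CCAAT boxes at bases 196 to 192 and 94 to 90. Nes held GC boxes at bases 73 to 68 and 62 to 57, and the Gfap window held none of the 6 motifs. Of all 32851 RefSeq promoter windows of this length, 12.4% held the TATA box, 33.8% the CCAAT box, 32.7% the GC box, 7.02% the STAT motif, 4.46% the AP-1 motif and 0.417% the E2F motif. RefSeq windows were found for 7 of the 8 genes, with no entry for Lmnb1. Synm held 1 CCAAT box, Ina 2 GC boxes, the first Lmna start 1 GC box, the second 1 CCAAT box, the first Lmnb2 start 1 GC box and the second no match. No matches overlapped each other, and a match is only a run of letters: binding was not measured.

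Synm encodes synemin, a large filament protein that joins vimentin or GFAP filaments and cannot form filaments by itself. Its position is chr7:67379908-67409527 (GRCm39, minus strand). Its level was low throughout, at 0.452, 0.542 and 0.407 FPKM in bFGF/EGF, 0.439, 0.583 and 0.711 FPKM in bFGF/BMP4, and 3.27, 2.88 and 2.66 FPKM in BMP4. The first 2 conditions overlapped, and all 3 BMP4 libraries lay above them. Synm rose in BMP4 by 2.42 ± 0.23 on the log2 scale against bFGF/EGF (SE; limma, adjusted p = 1.31e-05) and by 2.18 ± 0.23 against bFGF/BMP4 (adjusted p = 0.000122). Between bFGF/BMP4 and bFGF/EGF the log2 difference was 0.25 (95% confidence interval -0.27 to 0.76, adjusted p = 0.414), and it was -0.026 after quantile normalization. Exons of Synm overlap those of Ttc23 on the other strand, and the strand setting of the counting was not given in the sources used here. Ttc23 stood at 0.395, 2.61 and 2.25 FPKM (means of bFGF/EGF, bFGF/BMP4 and BMP4, n = 3 each). Synm differed 5.08-fold by the means between the 2 media with BMP4, and the part of Ttc23 reads in its values was not tested.

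Ina encodes internexin, a filament protein known mainly from neurons. Its position is chr19:47003069-47013770 (GRCm39, plus strand). It stood at 6.77, 9.11 and 7.16 FPKM in bFGF/EGF, 2.13, 2.19 and 2.35 FPKM in bFGF/BMP4, and 5.85, 4.88 and 3.84 FPKM in BMP4. The conditions did not overlap, with bFGF/BMP4 lowest and bFGF/EGF highest. Ina fell by 1.73 ± 0.18 on the log2 scale in bFGF/BMP4 against bFGF/EGF (SE; limma, adjusted p = 3.44e-05). It rose by 1.07 ± 0.18 in BMP4 against bFGF/BMP4 (adjusted p = 0.00189), just past the fold threshold: without BMP4 replicate 1 the value was 0.93, and with 1 FPKM added in place of 0.1 it was 0.85, both below a 2-fold change. The log2 fold change of BMP4 against bFGF/EGF was -0.66 ± 0.18 (adjusted p = 0.0104), a 1.58-fold difference that did not reach the fold threshold. Ina overlaps Nt5c2 on the other strand, which stood at 4.10, 6.69 and 4.65 FPKM (means of bFGF/EGF, bFGF/BMP4 and BMP4, n = 3 each) and so was highest where Ina was lowest.

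**Figure D2:**
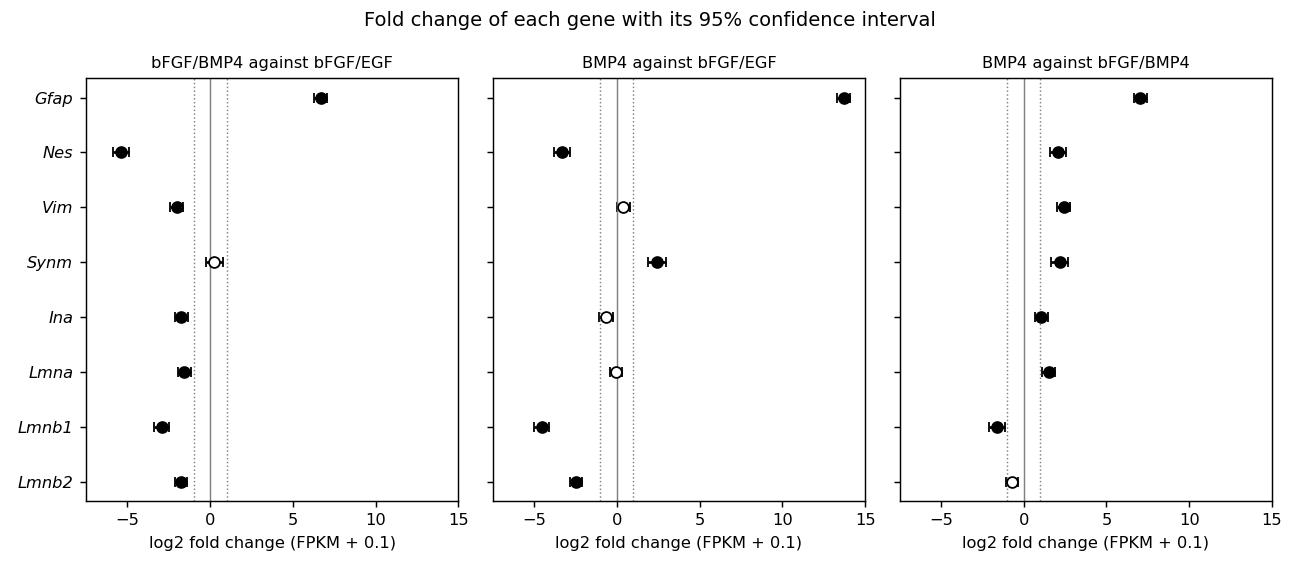
Log2 fold change of each gene on the log2(FPKM + 0.1) scale in the 3 comparisons, with 95% confidence intervals from limma. Filled points passed the adjusted p of 0.05 and the 2-fold threshold (dotted lines), open points did not. In BMP4 against bFGF/BMP4, 6 genes lie right of the threshold and Lmnb1 lies left of it.

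Because FPKM is per length, levels may be set side by side between genes. The length behind the deposited values, recovered from the fragments per FPKM, was 0.955 to 1.04 times the annotated exon length (GENCODE vM39) for 6 of the genes, 0.845 times for Lmnb1 and 0.747 times for Gfap, so the levels of these 2 are relatively higher than current exon lengths would give. In bFGF/EGF the order by mean FPKM was Vim, Lmnb1, Nes, Lmnb2, Lmna, Ina, Synm and Gfap, in which the ranges of Lmnb1 and Nes, and of Lmna and Ina, overlapped. In bFGF/BMP4 the order was Vim, Lmnb1, Gfap, Lmnb2, Nes, Lmna, Ina and Synm, with overlap of Lmnb1 with Gfap and of Nes with Lmna. In BMP4 it was Gfap, Vim, Nes, Lmna, Lmnb1, Ina, Lmnb2 and Synm, with overlap of Nes with Lmna and of Lmnb2 with Synm.

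The summed level of the 27 cytoplasmic filament genes followed was 843 ± 71.3 FPKM (SD, n = 3) in bFGF/EGF, 200.1 ± 21.3 FPKM in bFGF/BMP4 and 3501 ± 484 FPKM in BMP4. It was therefore smallest in bFGF/BMP4, and its make-up changed as well. Vim held 80.2% ± 2.16 (SD, n = 3) of the sum in bFGF/EGF and 83.2% ± 0.417 in bFGF/BMP4, but 25.6% ± 3.44 in BMP4. Nes held 18.1% ± 2.18, 1.77% ± 0.138 and 0.448% ± 0.119 in the same order. Gfap held 0.0112% ± 0.00529, 9.70% ± 0.410 and 73.1% ± 3.63. The 2 sets of libraries with BMP4 thus shared a small part of Nes and differed in which of Vim and Gfap came first. Synm held at most 0.319% of the sum in any library and Ina at most 1.18%.

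**Figure D3:**
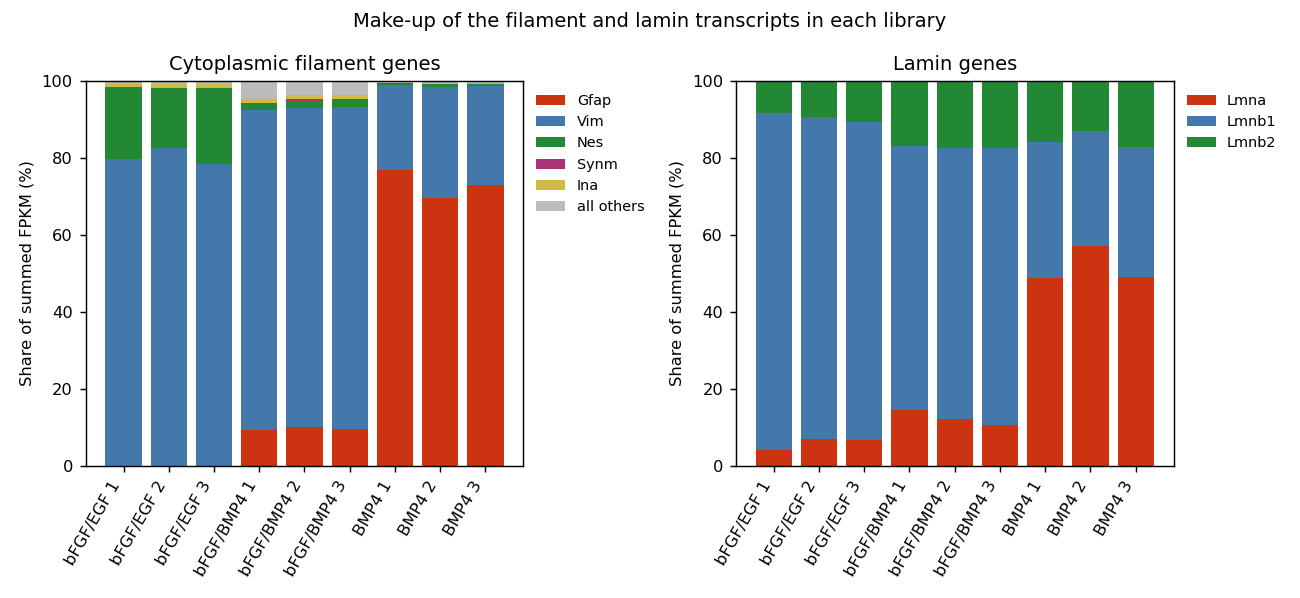
Share, in percent of summed FPKM, of each gene among the cytoplasmic filament genes (left) and among the 3 lamin genes (right), with 1 stacked bar for each library. Vim fills most of the left bars in bFGF/EGF and bFGF/BMP4 and Gfap in BMP4, while Lmnb1 gives way to Lmna on the right.

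Within a library, the ratio of 2 genes does not depend on how libraries were scaled to each other. Gfap to Nes sets the filament gene of astrocytes and astrocyte-like stem cells against the standard stem and progenitor marker. It therefore does not separate stem cells from astrocytes. Nes exceeded Gfap 1817-fold, 2412-fold and 1173-fold in the bFGF/EGF libraries. Gfap exceeded Nes 5.69-fold, 5.29-fold and 5.47-fold in bFGF/BMP4, and 190-fold, 119-fold and 205-fold in BMP4. The log2 ratio was -10.75 ± 0.52 (SD, n = 3), 2.45 ± 0.05 and 7.38 ± 0.42. No condition overlapped another, and each of the 3 comparisons gave p = 0.1 in a two-sided exact permutation test, the smallest that 3 against 3 libraries allow.

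Of the 26 other filament genes followed, among them keratins, neurofilaments, desmin and lens filament genes, 5 keratins were at 0 in every library, 15 genes stayed below 1 FPKM and 6 reached it. Only 9 of them passed the filter. In bFGF/BMP4 against bFGF/EGF 3 rose and 3 fell, in BMP4 against bFGF/EGF 3 rose and 2 fell, and in BMP4 against bFGF/BMP4 2 rose and none fell in limma (limma-voom called 3 higher and 0 lower, and 1 was lower at an unadjusted p under 0.05). Their median log2 fold changes were 0.21, -0.16 and 0.17. Of all genes tested, 16.5%, 21.3% and 8.41% rose and 14.1%, 15.4% and 5.14% fell in these comparisons. Bfsp2, a filament gene known from the eye lens, rose over both steps, from 1.02 ± 0.214 FPKM (SD, n = 3) in bFGF/EGF to 3.49 ± 0.585 in bFGF/BMP4 and 13.1 ± 2.07 in BMP4 (log2 fold change of the second step 1.88 ± 0.19 SE, limma, adjusted p = 0.000102). Nefm, a neurofilament subunit, fell from 1.98 ± 0.240 FPKM to 0.485 ± 0.0936 in bFGF/BMP4 (log2 fold change -1.84, adjusted p = 0.000126). In BMP4 it stood at 0.541 ± 0.0957 FPKM, 0.13 above bFGF/BMP4 on the log2 scale (adjusted p = 0.754). Unlike Ina, it thus gave no call between the 2 media with BMP4, though the difference between the 2 genes was not tested.

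Filaments are tied to other structures by linkers of the plakin family, kept soluble by small heat shock proteins, and modified or removed by enzymes. Of the 16 genes of this kind, 13 were tested. In bFGF/BMP4 against bFGF/EGF 9 rose and 1 fell (median log2 fold change 1.51), in BMP4 against bFGF/EGF 10 rose and none fell (median 1.78), and in BMP4 against bFGF/BMP4 5 rose and none fell (median 0.28). Both limma and limma-voom called 0 lower in the last 2 comparisons, as did an unadjusted p under 0.05. The shares over all genes tested were 16.5%, 21.3% and 8.41% risen and 14.1%, 15.4% and 5.14% fallen in limma. Cryab, a small heat shock protein known to bind GFAP and vimentin filaments, stood at 27.1, 38.0 and 20.5 FPKM in bFGF/EGF, 147, 141 and 146 FPKM in bFGF/BMP4 and 1292, 1849 and 1121 FPKM in BMP4. Hspb1, another of them, was at 0.829 ± 0.0802 FPKM (SD, n = 3), 2.98 ± 0.579 and 97.9 ± 47.3, and its 3 BMP4 libraries were spread from 56.7 to 149.6 FPKM. Both rose over each step without overlap of the conditions.

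Hspb8, a chaperone that works with Bag3 in clearing damaged proteins, differed in course: it had risen to 254 ± 25.1 FPKM (SD, n = 3) in bFGF/BMP4 from 2.20 ± 0.264, a log2 fold change of 6.79, and reached 1182 ± 104 FPKM in BMP4, a further 2.22 (limma, adjusted p = 5.24e-06). Padi2, an enzyme that turns arginine into citrulline and has GFAP and vimentin among its substrates, stood at 0.258, 0.0883 and 0.113 FPKM in bFGF/EGF, 6.56, 8.35 and 7.24 FPKM in bFGF/BMP4, and 195, 144 and 166 FPKM in BMP4. The second step was 4.49 ± 0.23 on the log2 scale (SE; limma, adjusted p = 2.75e-06). Plec, which encodes the linker plectin, stood at 2.12 FPKM in bFGF/EGF, 25.5 FPKM in bFGF/BMP4 and 31.1 FPKM in BMP4 (means, n = 3 each). Plec was named after its values were seen, and the last 2 of these means differed by 0.26 on the log2 scale (adjusted p = 0.382).

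**Figure D4:**
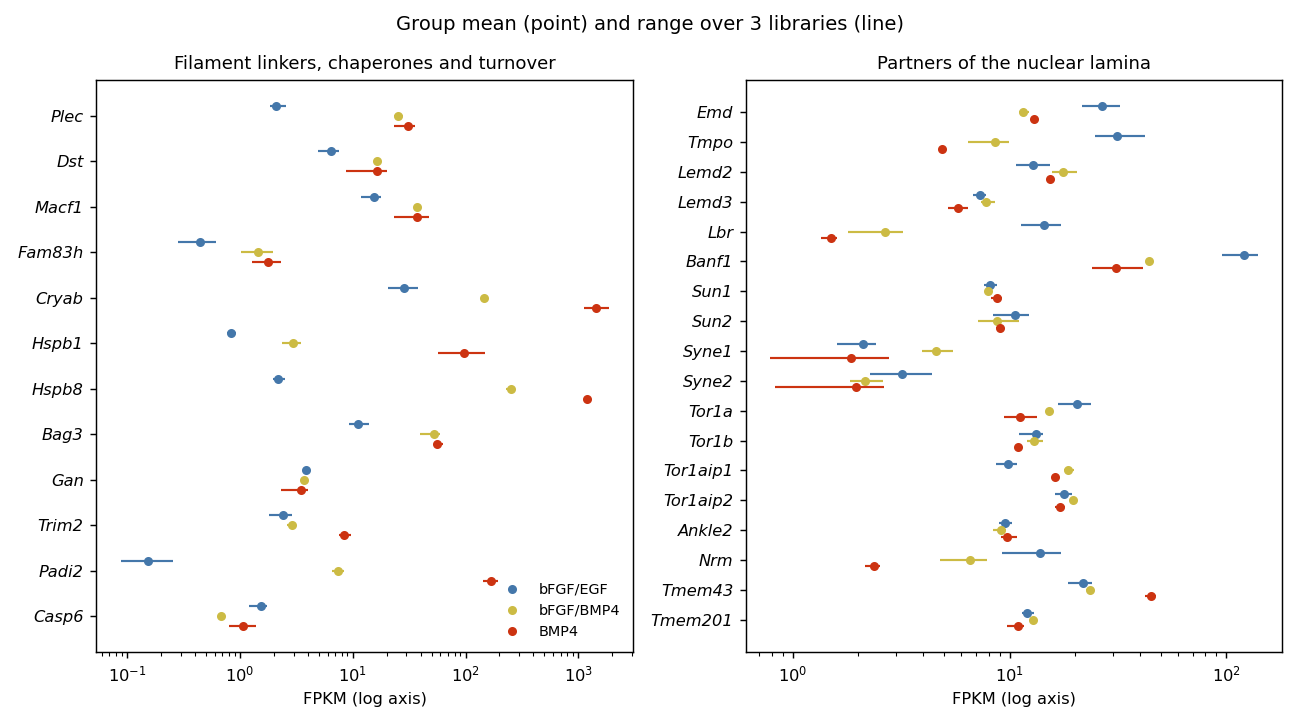
Mean FPKM of 3 libraries (point) and their range (line) on a log axis, for filament linkers, chaperones and turnover genes (left) and for partners of the nuclear lamina (right), by condition; only genes that reached 1 FPKM in a library are drawn. Cryab, Hspb1, Hspb8 and Padi2 climb over both steps, while Tmpo, Lbr and Nrm descend.

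The A-type lamin gene Lmna gives rise to lamin A and lamin C by alternative splicing, which a value per gene cannot separate. It lies on the minus strand at chr3:88387454-88417299 (GRCm39). Its level was 9.51, 13.0 and 8.72 FPKM in bFGF/EGF, 3.46, 3.38 and 3.35 FPKM in bFGF/BMP4, and 9.03, 11.9 and 9.02 FPKM in BMP4. The bFGF/BMP4 libraries were close together and below all others, while bFGF/EGF and BMP4 overlapped. Lmna fell by 1.57 ± 0.17 on the log2 scale in bFGF/BMP4 against bFGF/EGF (SE; limma, adjusted p = 4.85e-05). It rose by 1.52 ± 0.17 in BMP4 against bFGF/BMP4 (adjusted p = 0.000177). The log2 difference between BMP4 and bFGF/EGF was -0.051, with a 95% confidence interval of -0.43 to 0.33 (adjusted p = 0.825); its sign turned with single libraries left out.

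Lmnb1 encodes lamin B1, which lines the nuclear membrane of nearly all cells. The gene lies at chr18:56840590-56886496 (GRCm39, plus strand). In bFGF/EGF its level was 199, 158 and 106 FPKM, the widest spread of any condition for this gene. In bFGF/BMP4 it was 16.5, 19.7 and 23.0 FPKM. In BMP4 it was 6.55, 6.23 and 6.22 FPKM, with a coefficient of variation of 2.94%. No condition overlapped another. The log2 fold change was -2.93 ± 0.21 (SE; limma, adjusted p = 3.15e-06) in bFGF/BMP4 against bFGF/EGF and -4.54 ± 0.21 (adjusted p = 1.50e-07) in BMP4 against bFGF/EGF. It fell by 1.61 ± 0.21 in BMP4 against bFGF/BMP4 (adjusted p = 0.000420), 3.11-fold by the means. Exons of Marchf3 overlap it on the other strand, and this gene stood at 0.412, 2.89 and 2.52 FPKM (means of bFGF/EGF, bFGF/BMP4 and BMP4, n = 3 each).

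Lmnb2 encodes lamin B2, the second B-type lamin. It lies on the minus strand at chr10:80737037-80754110 (GRCm39). Its level was 18.8, 17.4 and 13.7 FPKM in bFGF/EGF, 4.02, 4.87 and 5.54 FPKM in bFGF/BMP4, and 2.95, 2.72 and 3.14 FPKM in BMP4. As for Lmnb1, the conditions stood in this order without overlap. Lmnb2 fell by 1.77 ± 0.16 on the log2 scale in bFGF/BMP4 (SE; limma, adjusted p = 1.61e-05) and by 2.45 ± 0.16 in BMP4 (adjusted p = 1.37e-06), each against bFGF/EGF. Between BMP4 and bFGF/BMP4 the log2 fold change of -0.68 ± 0.16 (adjusted p = 0.0135) was under 2-fold and was not called.

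The 3 lamin genes together summed to 182 ± 49.8 FPKM (SD, n = 3) in bFGF/EGF, 27.9 ± 3.93 FPKM in bFGF/BMP4 and 19.3 ± 1.40 FPKM in BMP4. Lmnb1 held 84.7% ± 2.57 (SD, n = 3) of that sum in bFGF/EGF and 70.5% ± 1.65 in bFGF/BMP4, but 33.0% ± 2.84 in BMP4. Lmna held 5.96% ± 1.54, 12.4% ± 1.97 and 51.6% ± 4.73, and Lmnb2 9.36% ± 1.17, 17.2% ± 0.358 and 15.3% ± 2.08. In BMP4 the A-type gene thus held the largest share, with a summed level below that of the other 2 conditions. Lmnb1 exceeded Lmna 21.0-fold, 12.1-fold and 12.2-fold in the bFGF/EGF libraries and 4.76-fold, 5.83-fold and 6.84-fold in bFGF/BMP4. In BMP4 Lmna exceeded Lmnb1 1.38-fold, 1.91-fold and 1.45-fold. The log2 ratio of Lmna to Lmnb1 was -3.87 ± 0.45 (SD, n = 3), -2.52 ± 0.26 and 0.65 ± 0.25 in these conditions. They did not overlap, and each comparison gave p = 0.1 in the two-sided exact permutation test, again the smallest it allows.

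The proliferation markers moved with the B-type lamins. All 12 of those followed fell in both comparisons with bFGF/EGF, and 10 of 12 fell in BMP4 against bFGF/BMP4 (median log2 fold change -2.11). Among all genes tested, 14.1% fell in bFGF/BMP4 and 15.4% in BMP4 against bFGF/EGF, and 5.14% in BMP4 against bFGF/BMP4. Mki67, a marker of cycling cells, stood at 51.2, 19.8 and 31.2 FPKM in bFGF/EGF, 7.22, 13.6 and 10.1 FPKM in bFGF/BMP4, and 1.79, 1.55 and 1.82 FPKM in BMP4. The summed level of the 12 markers ranged from 441 to 876 FPKM in bFGF/EGF, 96.6 to 169 FPKM in bFGF/BMP4 and 50.7 to 65.8 FPKM in BMP4. The part of this difference in the lamin values was not tested.

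Lamins have partners among the proteins of the nuclear envelope and of the chromatin below it. Of the 20 genes followed here, 18 were tested. In bFGF/BMP4 against bFGF/EGF 1 rose and 5 fell, in BMP4 against bFGF/EGF 1 rose and 5 fell, and in BMP4 against bFGF/BMP4 none rose and 2 fell in limma and in limma-voom alike. At an unadjusted p under 0.05, 1 was higher and 7 were lower in the last of these. The medians were -0.044, -0.29 and -0.24 on the log2 scale. Of all genes tested, 16.5%, 21.3% and 8.41% rose and 14.1%, 15.4% and 5.14% fell in the same 3 comparisons. Lbr, the lamin B receptor, stood at 17.3, 14.8 and 11.3 FPKM in bFGF/EGF, 1.80, 3.22 and 2.94 FPKM in bFGF/BMP4, and 1.35, 1.59 and 1.55 FPKM in BMP4. It fell in both comparisons with bFGF/EGF, by 2.42 ± 0.23 and 3.17 ± 0.23 on the log2 scale (SE; limma, adjusted p = 2.07e-05 and 2.45e-06). Tmpo, which encodes the lamina-associated polypeptides 2, fell in the same comparisons, from 31.4 ± 9.43 FPKM (SD, n = 3) to 8.54 ± 1.87 and 4.89 ± 0.162.

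Nrm, which encodes nurim of the inner nuclear membrane, fell over both steps, from 13.8 ± 4.15 FPKM (SD, n = 3) to 6.57 ± 1.58 and 2.37 ± 0.20 (log2 fold change of the second step -1.41 ± 0.25 SE, limma, adjusted p = 0.00257). Syne1, which encodes nesprin-1 and links the nucleus to the cytoskeleton, was highest in bFGF/BMP4, at 4.56 ± 0.827 FPKM against 2.12 ± 0.458 in bFGF/EGF and 1.86 ± 1.01 in BMP4. Its fall in BMP4 against bFGF/BMP4 (log2 fold change -1.39, adjusted p = 0.0268) includes the low value of BMP4 replicate 2 given above. The 6 genes of lamin processing, which cover farnesylation, cleavage and methylation of the lamin tail, gave 0 calls in each of the 3 comparisons in limma and in limma-voom. At an unadjusted p under 0.05, 3 were higher and 1 was lower in each of the comparisons with bFGF/EGF, and 1 was higher and 1 lower in BMP4 against bFGF/BMP4.

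For each of the 8 genes, the protein-coding genes of most similar course were sought among 7452 genes with a mean of at least 5 FPKM, by the root mean square difference of log2 values centred on their mean over the 9 libraries, which share their conditions and depth. For Gfap they were Myoc, Padi2 and Fmod, at differences of 1.35, 1.78 and 1.89. This measure grows with the size of a gene's change, so it is not compared between Gfap and genes that changed less. Myoc stood at 0.0273, 1.54 and 965 FPKM (means of bFGF/EGF, bFGF/BMP4 and BMP4, n = 3 each). Vim was most like Lhfpl6, Rgl1 and Ppp1r1a (0.228 to 0.266), and Nes most like Car3, Gap43 and Tmsb10b (0.330 to 0.379). Gap43, a growth cone protein, stood at 331, 13.1 and 40.6 FPKM (means of bFGF/EGF, bFGF/BMP4 and BMP4, n = 3 each). The course of Ina was shared most closely by Gas1, Msn and Idh2 (0.115 to 0.164), and that of Lmna by Smpdl3b, Gpx1 and Ppdpf (0.108 to 0.187).

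Lmnb1 had Mcm2, Peg12 and Timeless nearest, at 0.197 to 0.217. Mcm2, a subunit of the replicative helicase, stood at 39.1, 5.89 and 1.75 FPKM (means of bFGF/EGF, bFGF/BMP4 and BMP4, n = 3 each), and Timeless, a replication fork protein, at 13.7, 2.32 and 0.628 FPKM. Lmnb2 was most like Rcc1, Umps and Nup62, at 0.0987 to 0.158. Rcc1, the exchange factor of the nuclear transport GTPase Ran, stood at 22.4, 6.14 and 4.13 FPKM. The 2 B-type lamin genes had no gene in common among these, but only the nearest 3 were kept for each.

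Markers of neural stem cells, the cell type named by the labels, were detected in the cultures, with Sox2 at 121 to 202 FPKM. Of the 10 stem cell markers, 9 had a mean of at least 1 FPKM on day 0 and in the medium with bFGF and BMP4, and 10 with BMP4 alone. The exception was Prom1, at 0.660, 0.151 and 2.49 FPKM (means of bFGF/EGF, bFGF/BMP4 and BMP4, n = 3 each), and Hes5 stood at 0.166 FPKM in bFGF/EGF replicate 3. Their levels were not steady. Against bFGF/EGF, 3 of the 10 rose and 3 fell in bFGF/BMP4, and 4 rose and 1 fell in BMP4. In BMP4 against bFGF/BMP4, 2 rose and 1 fell. Egfr fell from 42.7 FPKM in bFGF/EGF to 6.32 FPKM in bFGF/BMP4 and 6.34 FPKM in BMP4 (means, n = 3 each). Of 14 astrocyte markers, Gfap not among them, 10 rose and 1 fell in each comparison with bFGF/EGF (median log2 fold change 3.41 in bFGF/BMP4 and 2.68 in BMP4). In BMP4 against bFGF/BMP4, where Gfap rose by 7.03 on the log2 scale, 5 rose and 3 fell, with a median of -0.13. Of all genes tested, 16.5%, 21.3% and 8.41% rose and 14.1%, 15.4% and 5.14% fell in these 3 comparisons. The summed level of the 14 astrocyte markers was 450 to 564 FPKM in bFGF/EGF, 2306 to 2810 FPKM in bFGF/BMP4 and 3217 to 3273 FPKM in BMP4. Aqp4, the water channel of astrocytes, rose from 0.527 FPKM to 212 FPKM and 778 FPKM (means, n = 3 each). The 1 marker that fell against bFGF/EGF was Aldh1l1, at 135 FPKM there, 24.2 FPKM in bFGF/BMP4 and 58.1 FPKM in BMP4. Slc1a2 and Slc4a4 fell in BMP4 against bFGF/BMP4, from 175 to 65.5 FPKM and from 107 to 37.1 FPKM. Gjb6, an astrocyte gap junction gene, fell in that comparison too. It was listed at 0 in bFGF/EGF, at 2.96 FPKM in bFGF/BMP4 and at 0.238 FPKM in BMP4, a fall between the last 2 of 3.23 on the log2 scale (limma, adjusted p = 0.000524). The part of the astrocyte markers in the filament values was not tested.

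Markers of other cell types that make vimentin or neuronal filaments were also read. Those of vessels, mural cells and fibroblasts summed to 0.156 to 0.277 FPKM in bFGF/EGF and 0.920 to 1.24 FPKM in bFGF/BMP4. In BMP4 they summed to 1.62 to 1.98 FPKM. Cldn5 was at 0 in all libraries, while Rgs5 stood at 0.0430, 0.621 and 0.949 FPKM (means of bFGF/EGF, bFGF/BMP4 and BMP4, n = 3 each). The part of these markers in the Vim values was not tested. Microglial markers summed to at most 1.75 FPKM, with C1qa at 0. Most of that sum in BMP4 was Tmem119, which stood at 0, 0.257 and 1.34 FPKM in the same order. Neuronal markers summed to 82.7 to 102 FPKM in bFGF/EGF, 54.2 to 60.1 FPKM in bFGF/BMP4 and 150.4 to 221 FPKM in BMP4. Most of the sum in BMP4 was Tubb3, a neuronal tubulin, at 154, 179 and 101 FPKM. Without it the other 7 neuronal markers summed to 57.8 to 84.5 FPKM in bFGF/EGF, 38.1 to 42.6 FPKM in bFGF/BMP4 and 41.6 to 56.7 FPKM in BMP4. The part of these markers in the Ina values was not tested. Map2 made up most of that remainder, and Stmn2 stayed below 1 FPKM throughout. Map2 and Syt1 were highest in bFGF/EGF, Rbfox3 in bFGF/BMP4, and Snap25 and Dcx in BMP4 (by the means). Of the 8 neuronal markers 7 were tested. Against bFGF/EGF, 0 rose and 1 fell in bFGF/BMP4, and 2 rose and 1 fell in BMP4. In BMP4 against bFGF/BMP4, 3 rose and 1 fell. Over all genes tested, 16.5%, 21.3% and 8.41% rose and 14.1%, 15.4% and 5.14% fell. Ependymal markers summed to 8.26 to 12.6 FPKM, 11.1 to 11.7 FPKM and 57.8 to 69.9 FPKM, most of it Foxj1, with Tmem212 at 0. Oligodendrocyte lineage markers summed to 1119 to 1610 FPKM, 1125 to 1478 FPKM and 222 to 393 FPKM, nearly all of it Olig1, while Mbp, Mog, Mag, Mobp, Sox10 and Pdgfra stayed below 1 FPKM.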

How the data were processed

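RNA-seq was made from 9 cultures, 3 for each of bFGF/EGF, bFGF/BMP4 and BMP4, grouped by their labels. The authors deposited 1 table of FPKM values per gene. The submitters' processing notes name fastp (version 0.19.7), HISAT2 (version 2.0.5), featureCounts (version 1.5.0-p3) and the mouse build mm39; the annotation release, the strand setting and the program that gave FPKM are not given in the sources used here. Table identifiers were matched to GENCODE vM39 (54749 of 55414 Ensembl identifiers found). Whole fragment numbers were rebuilt from the FPKM steps for all 30860 genes above 0; they are the smallest whole numbers that fit, and give the depths.

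Genes with a mean of at least 0.1 FPKM were tested with limma (version 3.58.1, trend, R 4.3.3) on log2(FPKM + 0.1), with all 9 libraries in 1 model and Benjamini-Hochberg adjustment over 20207 genes. The call needed an adjusted p no higher than 0.05 and a change of 2-fold or more, the study's thresholds. In a simulation of BMP4 against bFGF/BMP4 on 19729 genes, 96% of 200 changed genes were called, as were 8 unchanged ones. The changed genes had at least 1 FPKM, changes set past the 2-fold threshold, and the same dispersion for every gene. The 96% therefore does not hold for changes near that threshold or for lower genes. P-values measure the spread between these cultures, for which shared or separate isolations are not stated. Ratios of 2 genes were compared by a two-sided exact permutation test.

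The 8 genes and the lists were chosen with earlier results of these data known. Besides the 8 genes, the text names, from each list, the 3 genes with the largest called fold change in each of BMP4 against bFGF/BMP4 and BMP4 against bFGF/EGF (mean of at least 1 FPKM), the 3 genes of most similar course for each of the 8 (not reported here for Synm), genes overlapping on the other strand, and Mki67; from the cell type marker lists only the genes a result turns on are named; a few list members without these properties are named for being at 0 or low, or, as Plec, after their values were seen. Alternatives covered the pseudocount, filter, scaling, test, threshold, replicate numbers and single libraries.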

Additional observations from a re-analysis of the deposited data

How the results depend on the processing

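The number of the 8 genes called was equal to that given in 53 of 57 counts, where each alternative setting was counted once for each of the 3 comparisons. In BMP4 against bFGF/BMP4 it was 6 in place of 7 with 1 FPKM added and without BMP4 replicate 1, with Ina lost in both (range with 1 library left out 6 to 7), and 8 with no fold threshold. In BMP4 against bFGF/EGF it was 6 in place of 5 with no fold threshold. The other settings were no filter, a mean of at least 1 FPKM, TPM, median-ratio and quantile scaling, limma-voom on rebuilt fragments, and a fit of only the groups compared. Of 360 log2 fold changes of single genes refitted, 353 kept direction and call, 2 (Ina) lost the call and 5, none of them called, turned sign. After quantile normalization these were Synm in bFGF/BMP4 against bFGF/EGF (-0.026) and Vim in BMP4 against bFGF/EGF (-0.028). Lmna in BMP4 against bFGF/EGF ranged from -0.18 (without BMP4 replicate 2) to 0.12 (without bFGF/EGF replicate 2), and was 0.015 and 0.016 without BMP4 replicates 1 and 3. The cause was not tested. Quantile normalization moved the median of all genes in BMP4 against bFGF/EGF from 0.10 to -0.035.

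With 1 FPKM added, the log2 ratio of Lmna to Lmnb1 in BMP4 against bFGF/BMP4 differed by 2.80 in place of 3.17. The log2 ratio of Gfap to Nes, 13.21 higher in bFGF/BMP4 than in bFGF/EGF, was 12.06 higher with 0.1 FPKM added, 11.68 with quantile normalization of those same values, and 9.29 with 1 FPKM added; in BMP4 against bFGF/EGF, 18.13 became 17.01, 16.25 and 14.41. Most of the drop under quantile normalization in the first of these was thus there with 0.1 FPKM added alone. An added value caps the change of Gfap by construction, and the 4 to 10 Gfap fragments of the bFGF/EGF libraries limit its precision.

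Over all genes, 1 FPKM added left 3544, 4364 and 1449 genes called in place of 6174, 7400 and 2738 in bFGF/BMP4 against bFGF/EGF, BMP4 against bFGF/EGF and BMP4 against bFGF/BMP4, and a mean of at least 1 FPKM left 1800 in the last, where fewer genes were tested.

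Same-numbered libraries of different conditions had correlations of their deviations of -0.084 to 0.12, so the numbers were not taken to pair them. With the replicate block, 7, 5 and 7 of the 8 genes were called in the 3 comparisons in this order, as without it. Paired differences of the log2 ratios have the same mean as the unpaired ones by construction, so their equality tests nothing. An exact sign-flip test of them gave p = 0.25, the smallest that 3 pairs allow.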
